A study of Mus musculus with 26 samples.

Results

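Mitochondrial ribosomal protein genes are the nuclear genes, named Mrpl for the large subunit and Mrps for the small subunit, that encode proteins of the ribosome inside mitochondria. They were taken as every protein-coding gene of the mouse annotation (RefSeq, GRCm38.p6, the assembly also called mm10) whose symbol is Mrpl or Mrps followed by a number. This gave 78 genes of 21887, of which 49 were Mrpl and 29 Mrps, and 6 pseudogenes with such names were left out. The 78 genes lay on 17 chromosomes, with 11 on chromosome 11, 8 on chromosome 17 and 7 on chromosome 6.

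Trimethylation of histone H3 at lysine 4 (H3K4me3), a mark of the start sites of active genes, had been profiled by chromatin immunoprecipitation and sequencing in Early-B cells and in progenitors. Both were mouse cells of genotype Ebf1-/-, which lack the B-lineage transcription factor EBF1. Early-B cells were such progenitors given EBF1.ER, a form of EBF1 carried by the retroviral vector MigR1, and kept for 2 days on a layer of OP9 stromal cells with IL-7, SCF, FLT3-L and 4-O-Hydroxy-tamoxifen. For the progenitors the labels give no culture, so EBF1.ER, the inducer and the culture cannot be told apart in any difference between the groups. The labels list 2 immunoprecipitated and 2 input DNA samples per group and do not say whether these came from separate cultures. The Early-T cells, microRNA and Ago2 samples of the same series were not analysed here.

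Each group had 1 peak list, with 48054 peaks of median width 1164 bp in Early-B cells and 31414 peaks of median width 1231 bp in progenitors. With no values per sample there was no replicate error, so widths and counts are described and no difference was tested. The pileup (read coverage of a peak), the fold enrichment and the −log10 p are the values of the authors' peak caller, and they are used to rank peaks within a list, never as a change between lists. The read depth behind them is unknown. Of 9 B-lineage marker genes, Pax5, Cd22, Blnk, Igll1 and Pou2af1 had a peak at a gene end in Early-B cells only and the other 4 in both groups. The Early-B peak of Igll1, 18321 bp wide, was also that of Vpreb1, where progenitors had a peak of 2891 bp with a −log10 p of 179.3. Of 5 T-lineage markers, 3 had a peak in both groups, Gata3 in progenitors only and Bcl11b in neither. Of 4 myeloid markers, Mpo and Itgam had one in progenitors only. Of 8 stromal markers, 5 had a peak in Early-B cells only and 3 in both groups, with −log10 p of 1.25 to 34.97 in Early-B cells, and their part in the results below was not tested.

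The mitochondrial ribosome translates the few mRNAs encoded by mitochondrial DNA, all of which specify subunits of the respiratory chain and the ATP synthase. Its small subunit decodes the mRNA and its large subunit forms the peptide bonds, next to the inner membrane into which the products are inserted. All of its proteins are made in the cytosol from nuclear genes and imported. Their promoters are mostly of the housekeeping kind, rich in CpG dinucleotides, and nuclear respiratory factor NRF1, ETS-family factors such as GABP, and YY1 are known regulators of genes for mitochondrial proteins.

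Promoters of 7 of the genes are shown because the results below turn on them. Each runs from 250 bases before to 50 bases after the start site and is given 5′ to 3′ along the gene, from RefSeq (GRCm38.p6). The windows are Mrps27 at chr13:99344536-99344835, Mrps18a at chr17:46110754-46111053, Mrps26 at chr2:130563507-130563806, Mrpl45 at chr11:97315466-97315765, Mrps11 at chr7:78782881-78783180, Mrpl24 at chr3:87919294-87919593 and Mrps2 at chr2:28467816-28468115, all on the plus strand. Capitals mark matches, on either strand, to GCGCA, any base and GCGC (the NRF1 motif), CCGGAAG (ETS family) or AAGATGGC (YY1). Mrps27 and Mrps18a hold an ETS and a YY1 match, Mrps26 an ETS match and a pair of overlapping NRF1 matches, and Mrpl45 NRF1 matches at 3 places. Mrps11 shares its promoter with Mrpl46, and Mrpl24 and Mrps2, which hold none of the 3 motifs, are genes whose peaks were placed differently in the lists.
Mrps27: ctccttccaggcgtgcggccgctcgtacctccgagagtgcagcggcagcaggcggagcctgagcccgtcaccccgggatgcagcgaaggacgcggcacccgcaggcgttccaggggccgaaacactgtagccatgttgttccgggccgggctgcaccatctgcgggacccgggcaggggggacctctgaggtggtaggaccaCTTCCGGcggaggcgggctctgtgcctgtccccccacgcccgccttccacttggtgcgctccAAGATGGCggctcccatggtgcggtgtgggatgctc
Mrps18a: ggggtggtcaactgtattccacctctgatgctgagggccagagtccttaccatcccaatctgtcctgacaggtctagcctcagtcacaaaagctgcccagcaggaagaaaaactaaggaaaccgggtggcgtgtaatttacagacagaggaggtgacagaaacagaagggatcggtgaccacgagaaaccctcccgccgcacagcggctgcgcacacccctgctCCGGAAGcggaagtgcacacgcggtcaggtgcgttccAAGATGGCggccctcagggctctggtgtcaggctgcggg
Mrps26: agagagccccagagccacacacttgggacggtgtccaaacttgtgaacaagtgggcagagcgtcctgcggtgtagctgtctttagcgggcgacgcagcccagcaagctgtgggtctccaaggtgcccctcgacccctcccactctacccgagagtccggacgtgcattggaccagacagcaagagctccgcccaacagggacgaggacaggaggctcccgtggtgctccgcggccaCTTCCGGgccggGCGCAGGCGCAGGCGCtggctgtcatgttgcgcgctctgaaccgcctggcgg
Mrpl45: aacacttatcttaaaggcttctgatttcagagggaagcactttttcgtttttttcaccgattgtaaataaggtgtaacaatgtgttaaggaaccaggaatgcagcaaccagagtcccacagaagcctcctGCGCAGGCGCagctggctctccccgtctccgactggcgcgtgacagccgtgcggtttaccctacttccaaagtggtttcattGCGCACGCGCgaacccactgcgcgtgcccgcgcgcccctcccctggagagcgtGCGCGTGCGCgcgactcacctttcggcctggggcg
Mrps11: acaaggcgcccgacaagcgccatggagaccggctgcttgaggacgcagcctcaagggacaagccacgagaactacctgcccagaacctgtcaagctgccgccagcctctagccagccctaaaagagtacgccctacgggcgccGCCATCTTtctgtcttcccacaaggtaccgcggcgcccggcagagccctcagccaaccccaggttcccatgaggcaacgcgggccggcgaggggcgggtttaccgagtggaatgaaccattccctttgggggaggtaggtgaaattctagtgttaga
Mrpl24: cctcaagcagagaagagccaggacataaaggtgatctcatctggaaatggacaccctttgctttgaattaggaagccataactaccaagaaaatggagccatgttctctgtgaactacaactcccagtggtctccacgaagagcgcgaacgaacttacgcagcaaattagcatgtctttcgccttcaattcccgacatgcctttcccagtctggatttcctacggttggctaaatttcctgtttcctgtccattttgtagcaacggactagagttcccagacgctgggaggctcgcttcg
Mrps2: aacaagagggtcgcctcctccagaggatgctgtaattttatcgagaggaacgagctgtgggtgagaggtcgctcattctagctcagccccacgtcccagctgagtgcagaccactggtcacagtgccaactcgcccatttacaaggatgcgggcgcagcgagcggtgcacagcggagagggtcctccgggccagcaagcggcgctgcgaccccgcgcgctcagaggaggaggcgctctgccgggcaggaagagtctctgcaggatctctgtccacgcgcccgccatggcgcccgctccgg

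H3K4me3 peaks stood at the genes of the mitochondrial ribosome in both groups. A gene was counted when a peak overlapped, by at least 1 bp, the window of 1 kb on each side of either end of its annotated span. By this measure 77 of 78 genes had a peak in both Early-B cells and progenitors, against 53.5% of all protein-coding genes. One gene, Mrpl24, was counted in Early-B cells only, a class that held 5.75% of all protein-coding genes. No gene was counted in progenitors only or in neither group, classes that held 2.34% and 38.4% of all protein-coding genes. In bulk chromatin, fewer marked cells and a weaker mark per cell cannot be told apart.

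The single exception rested on where a peak edge fell. Mrpl24 encodes a large-subunit protein (chromosome 3, 87918131 to 87923450). Its annotated span begins upstream of the start site at 87919544, whose promoter is printed above. The Early-B peak ran from 87919000 to 87921078, was 2079 bp wide and had a pileup of 72.22. The progenitor peak ran from 87919279 to 87920603, was 1325 bp wide and had a pileup of 101.8. Both peaks held the start site, and only the Early-B one reached the window around the gene's end.

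Start sites were known from RefSeq promoters for 69 of the 78 genes. All 69 start sites lay inside a peak in Early-B cells and in progenitors, against 55.1% and 52.8% of the 17492 coding genes with a known start site, and 50.9% had both. The start-site peaks were far from the weak end of each list, with a lowest −log10 p of 59.26 in Early-B cells and 88.99 in progenitors, both at Mrpl24. The 9 genes without a listed start site, Mrpl4, Mrpl13, Mrpl15, Mrpl19, Mrpl38, Mrpl54, Mrps28, Mrps34 and Mrps35, are covered by gene ends alone.

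Among the end peaks of coding genes, those at these genes were mostly above the middle by pileup and of ordinary width. The median pileup was 144.2 in Early-B cells, against 113.2 over all coding genes with an end peak in that list, and 183.2 in progenitors, against 150.9. Above the median pileup of those coding genes were 66 of 78 genes in Early-B cells and 65 of 77 in progenitors. Median width was 2877 bp in Early-B cells, against 3093 bp over all coding genes, and 2781 bp in progenitors, against 2765 bp. A fold enrichment of at least 10 was reached by 75 of 78 genes in Early-B cells, against 67.4% of coding genes with an end peak, and by 76 of 77 genes in progenitors, against 78.1%. Among coding genes with an end peak, the median gene stood at percentile 74.83 of pileup in Early-B cells and 73.68 in progenitors. In the plot of pileup against width the genes lie in the upper part of the main cloud of coding genes, below its highest points.

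**Figure D1:**
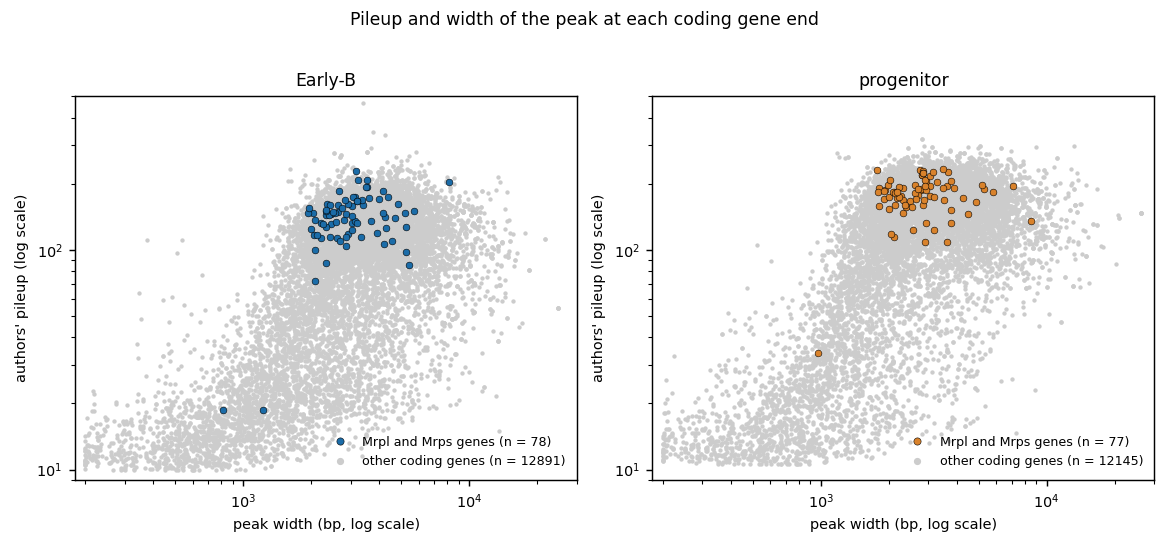
Authors' pileup (vertical, log scale) against peak width in bp (horizontal, log scale) for the end peak of each coding gene, in Early-B cells (left) and progenitors (right). Coloured points are the 78 and 77 mitochondrial ribosomal protein genes with a peak, grey points all other coding genes, and the few low coloured points are Mrps2 and Mrps23 in Early-B cells and Mrps23 in progenitors.

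Within the Early-B list the highest pileups were at Mrpl43 (227.5), Mrps31 (208.9), Mrps21 (208.7) and Mrpl49 (203.1). The lowest were at Mrps23 (18.61), Mrps2 (18.67), Mrpl24 (72.22) and Mrpl35 (85.46). Within the progenitor list the highest were at Mrps34 (232.5), Mrpl12 (232.0), Mrpl22 (231.5) and Mrpl14 (228.3). These 4 genes belong to both subunits, and the protein of Mrpl12 is also known to bind the mitochondrial RNA polymerase. The value ranked for Mrpl22 is that of a peak at Gemin5, and the progenitor peak at its own start site had a pileup of 160.0. The lowest progenitor pileups were at Mrps23 (34.04), Mrpl23 (108.1), Mrpl54 (108.2) and Mrpl45 (114.3). Mrpl23 and Mrpl45 encode proteins near the exit of the peptide tunnel, where the new chain meets the membrane. Ranked across the 77 genes with both peaks, pileups in the lists had a Spearman coefficient of 0.647 and widths one of 0.641, as a description of genes that share libraries.

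At Mrps23 and Mrpl22 in both lists, and at Mrps2 in Early-B cells, the end peak was not the peak at the start site. Mrps23 (chromosome 11, 88194106 to 88211507) had end peaks of 1223 bp in Early-B cells and 971 bp in progenitors, far upstream of its start site and beside Cuedc1. The peaks that held its start site were 2575 bp wide with a pileup of 150.0 in Early-B cells and 3628 bp wide with a pileup of 177.2 in progenitors. Mrpl22 (chromosome 11, 58170043 to 58179580) was represented by a peak at Gemin5, of 2619 bp in Early-B cells and 1781 bp in progenitors. At the Mrpl22 start site itself the peak was 2101 bp wide with a pileup of 106.8 in Early-B cells and 1653 bp wide with a pileup of 160.0 in progenitors. Taken over start-site peaks alone, pileups ran from 72.22 to 227.5 with a median of 144.7 in Early-B cells, against a median of 118.6 over all coding genes. In progenitors they ran from 101.8 to 232 with a median of 181.2, against 155.3.

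The peak was wider in Early-B cells at 51 of the 77 genes with both peaks (66.2%), against 64.4% of all coding genes with both peaks. The share of these genes was thus close to the background, and the width of a typical peak differed little between the groups. The median ratio of Early-B to progenitor width was 1.061 at these genes, against 1.083 over all coding genes. At 33 genes (42.9%) the widths differed by a factor of less than 1.1, against 30.5% of coding genes. At 30 genes (39.0%) the Early-B peak was wider by more than that factor, against 47.2%, and at 14 genes (18.2%) it was narrower by more than that factor, against 22.2%. When both peaks were asked to reach a −log10 p of 50, 75 genes were left, and 50 of these (66.7%) had the wider peak in Early-B cells, against 67.9% of coding genes under the same condition. That condition was met by 97.4% of the 77 genes and by 75.3% of coding genes with both peaks.

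**Figure D2:**
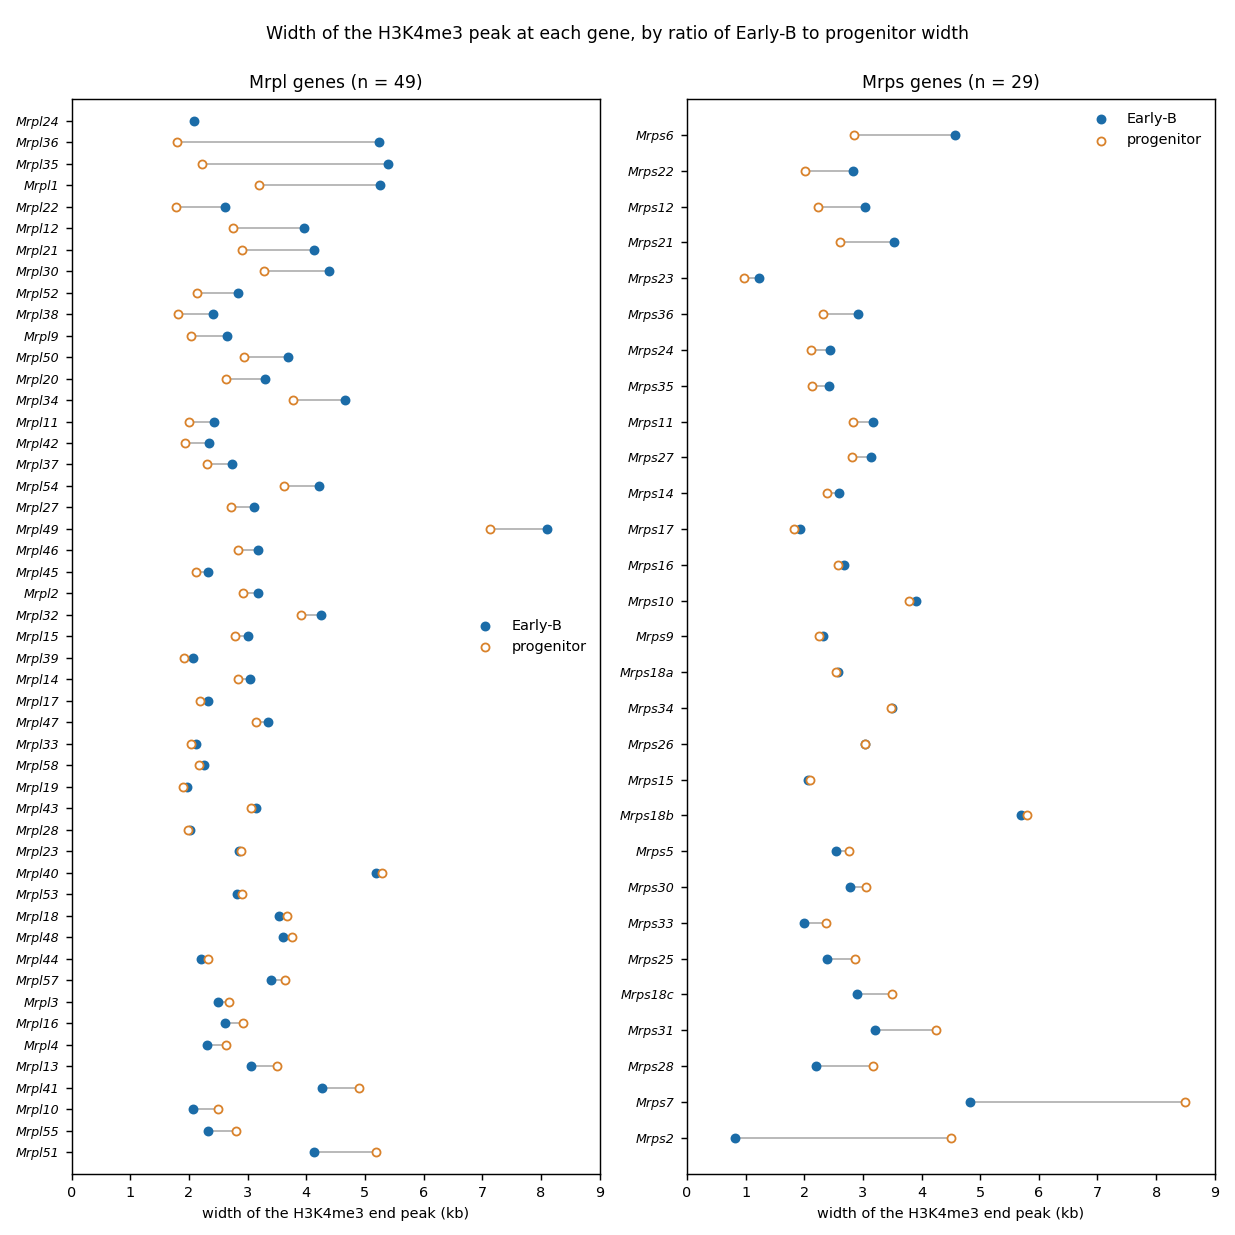
Width in kb of the H3K4me3 end peak (horizontal) at each Mrpl gene (left) and Mrps gene (right), in Early-B cells (filled blue) and progenitors (open orange), ordered by the ratio of Early-B to progenitor width. Most pairs of points lie close together, while Mrpl36, Mrpl35 and Mrpl1 at the top and Mrps7 and Mrps2 at the bottom are spread furthest, and Mrpl24 has an Early-B point only.

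Large-subunit and small-subunit genes had similar median widths in progenitors and differed more in Early-B cells, where 23 of 49 Mrpl and 9 of 29 Mrps genes were above the median width of all coding genes. Of the 48 Mrpl genes with both peaks the Early-B one was wider at 33 (68.8%), and of the 29 Mrps genes at 18 (62.1%). Both shares were near the 64.4% of all coding genes with both peaks. Median width was 3032 bp in Early-B cells and 2794.5 bp in progenitors at Mrpl genes. At Mrps genes it was 2780 bp in Early-B cells and 2768 bp in progenitors. Pileup had a median of 146.6 in Early-B cells and 188.2 in progenitors at Mrpl genes, and of 136.7 in Early-B cells and 172.7 in progenitors at Mrps genes. No difference between the subunits was tested.

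Genes with named roles in the particle followed the same range. Mrps12, whose protein lines the decoding centre, had peaks of 3038 bp in Early-B cells and 2226 bp in progenitors. Mrpl11 and Mrpl10, which build the site where translation factors are activated, differed in direction. Mrpl11 had peaks of 2430 bp in Early-B cells and 2001 bp in progenitors, and Mrpl10 of 2065 bp in Early-B cells and 2485 bp in progenitors. Mrpl58, a peptidyl-tRNA hydrolase that rescues stalled ribosomes, had peaks of 2249 bp in Early-B cells and 2172 bp in progenitors. Mrps36, whose protein is now known as a part of the 2-oxoglutarate dehydrogenase complex, had peaks of 2911 bp in Early-B cells and 2312 bp in progenitors. Mrps26 had the most equal widths, 3039 bp in Early-B cells and 3035 bp in progenitors, each covering the whole gene.

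The 4 genes with the highest ratio of Early-B to progenitor width were Mrpl36, Mrpl35, Mrpl1 and Mrps6. Mrpl36 (chromosome 13, 73328503 to 73332178) had 1 Early-B peak of 5231 bp, which covered both the gene and the end of the neighbour Ndufs6, a gene for a complex I subunit. In progenitors the same stretch held separate peaks of 2409 bp at Ndufs6 and 1797 bp at Mrpl36, and the ratio of 2.911 sets the joined peak against the second of these. Mrpl35 (chromosome 6, 71812997 to 71823784) had a peak of 5388 bp in Early-B cells and 2225 bp in progenitors, a ratio of 2.42. It reached 4701 bp downstream of the start site in Early-B cells and 1680 bp in progenitors, and met no other coding gene end. Mrpl1 (chromosome 5, 96209498 to 96266727) had a peak of 5253 bp in Early-B cells and 3188 bp in progenitors, a ratio of 1.65. Here the wider side was the upstream one, with 3677 bp in Early-B cells and 1813 bp in progenitors. Mrps6 (chromosome 16, 92058336 to 92112227) had a peak of 4566 bp in Early-B cells and 2849 bp in progenitors, a ratio of 1.60, and reached 3418 bp downstream in Early-B cells and 1753 bp in progenitors. The pileups of Mrpl35 and Mrpl1, 85.46 and 97.47, were among the lowest of these genes in the Early-B list.

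The 4 genes with the lowest ratio were all small-subunit genes, Mrps2, Mrps7, Mrps28 and Mrps31. Mrps2 (chromosome 2, 28465951 to 28471177) had a single progenitor peak of 4494 bp, from 28465811 to 28470304. In Early-B cells this stretch held a peak of 816 bp with a pileup of 18.67 at the annotated end and another of 1898 bp with a pileup of 166.3 at the start site. Its ratio was 0.182 by gene ends and 0.422 by start sites. Mrps7 (chromosome 11, 115604140 to 115608036) had a peak of 4819 bp in Early-B cells and 8493 bp in progenitors, a ratio of 0.567. The progenitor peak reached 6494 bp upstream, into Gga3, over a stretch where the Early-B list had a separate peak of 722 bp with a pileup of 10.18. Mrps28 had a peak of 2200 bp in Early-B cells and 3172 bp in progenitors, and Mrps31 of 3203 bp in Early-B cells and 4247 bp in progenitors. At 3 of these 8 genes, Mrpl36, Mrps2 and Mrps7, a peak in one list covered more than 1 peak of the other.

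**Figure D3:**
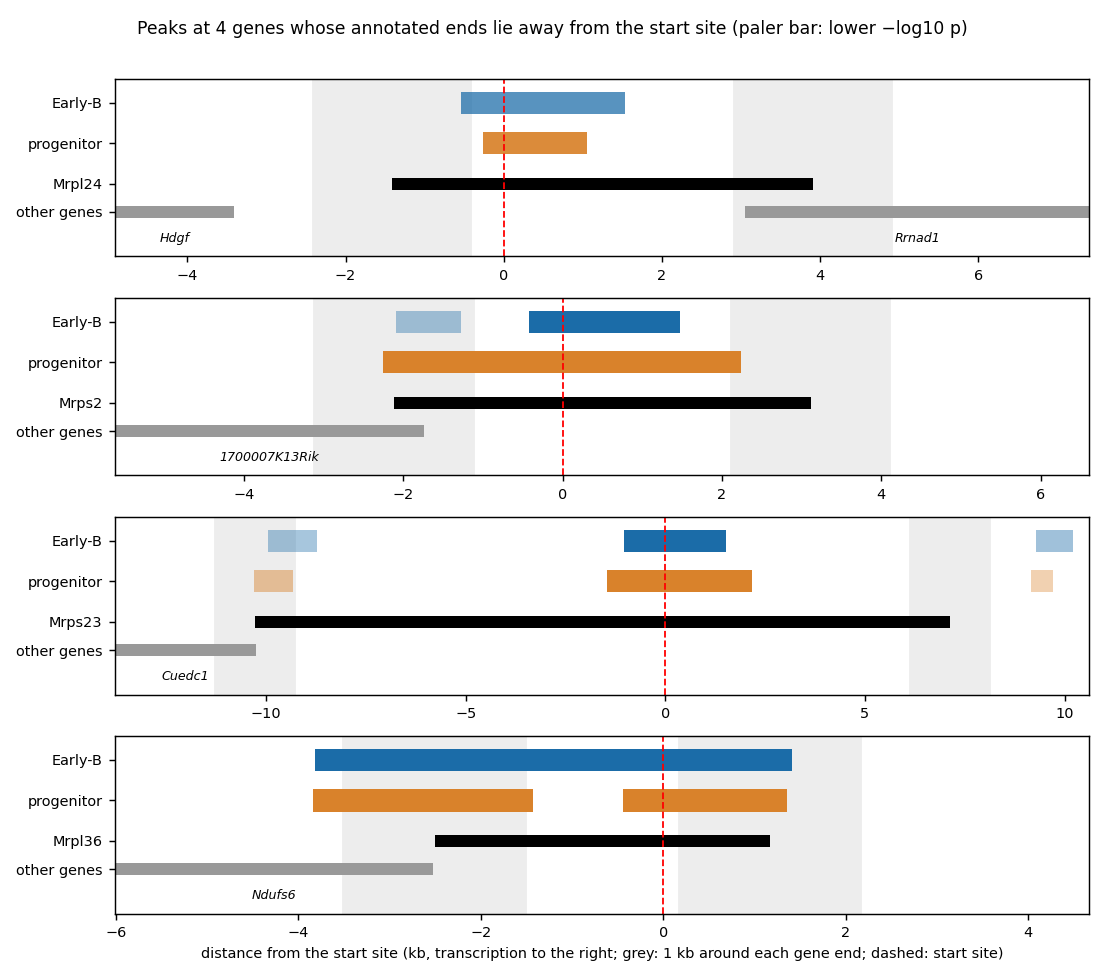
Peaks around the start site (dashed line, distance in kb, transcription to the right) of Mrpl24, Mrps2, Mrps23 and Mrpl36, with Early-B peaks in blue, progenitor peaks in orange, the gene's annotated span in black, other coding genes in dark grey and the window of 1 kb around each gene end shaded. Paler bars are peaks of lower −log10 p. Every start site lies in a peak of both lists, while the shaded windows catch only some of these peaks.

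A peak at a mitochondrial ribosomal protein gene often also lay at an end of another gene. In Early-B cells the end peak of 40 of 78 genes (51.3%) met the end window of another coding gene. That was so at 30.9% of coding genes with an end peak. In progenitors it was so at 39 of 77 genes (50.6%), against 31.1%. Either end of the neighbour counted. With windows at start sites alone, 28 of 69 genes shared a peak in each list, and no background share is given for that count. Mrpl46 and Mrps11 have the same peak, which is counted once for each gene. Shared peaks had a median width of 3260.5 bp in Early-B cells and 2931 bp in progenitors. Sharing was more frequent at Mrpl genes, with 57.1% in Early-B cells and 56.2% in progenitors, than at Mrps genes, with 41.4% in each group. Genes of the respiratory chain shared a peak at 51.9% in each group, and those of the cytosolic ribosome at 45.8% in Early-B cells and 39.8% in progenitors. Peaks that met no other gene had a median width of 2434 bp in Early-B cells and 2285.5 bp in progenitors. Mrpl49 and Mrps34 met the most neighbours, with 3 each in both lists. Mrpl49 (chromosome 19, 6053630 to 6057755) lay with Fau, Znhit2 and Tm7sf2 under a peak of 8099 bp in Early-B cells and 7135 bp in progenitors. Fau encodes a protein of the cytosolic ribosome, so 1 peak spanned genes for both kinds of ribosome. Mrps34 (chromosome 17, 24895120 to 24896289) lay with Eme2, Nme3 and Mapk8ip3 under a peak of 3502 bp in Early-B cells and 3480 bp in progenitors. The set of neighbours was the same in both lists at all genes with both peaks except Mrpl36.

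Many of these shared peaks held a pair of genes read in opposite directions. Of the 69 genes with a known start site, 25 (36.2%) had the start site of another coding gene on the opposite strand within 1 kb, against 9.31% of coding genes. Among genes with an end peak in both lists the share was 36.8% of 68, against 16.2%. The starts faced away from each other at 23 of the 25 genes, and the median distance was 147 bp. The pair Mrpl46 and Mrps11 (chromosome 7) joined a large-subunit and a small-subunit gene, with starts 42 bp apart at 78783089 and 78783131, under 1 peak of 3180 bp in Early-B cells and 2830 bp in progenitors. Several partners also serve mitochondria. Mrps12 started 147 bp from Sars2, the mitochondrial seryl-tRNA synthetase. Mrpl47 started 308 bp from Ndufb5, a gene for a complex I subunit, and Mrps27 started 108 bp from Ptcd2, a gene for a mitochondrial RNA-processing protein. At Mrpl43 and Twnk, the mitochondrial DNA helicase, the start sites crossed, which gives a distance of -779 bp, and those of Mrpl48 and Rab6a crossed likewise, at -715 bp.

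Other partners have roles outside mitochondria. Mrpl18 started 238 bp from Tcp1, a subunit of the cytosolic chaperonin, and Mrpl32 started 205 bp from Psma2, a proteasome subunit. Mrpl40 started 113 bp from Hira, a histone chaperone, and its peak of 5186 bp in Early-B cells and 5289 bp in progenitors extended 3847 bp in Early-B cells and 3905 bp in progenitors to the Hira side. The closest pair was Mrpl21 and Ighmbp2, at 32 bp, and the furthest partner was that of Mrpl41, Pnpla7, at 935 bp. A further 12 genes with a known start site shared a peak without such a partner, among them Mrpl12 with Hgs, Mrpl28 with Pgap6 and Mrpl53 with Ccdc142.

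The arrangement of start sites went with the shape of the peak. At the 25 genes with an opposite start, the start-site peaks had a median width of 3389 bp in Early-B cells and 3147 bp in progenitors. The peak that Mrpl46 and Mrps11 share is counted once for each gene. Upstream, the peaks of these 25 genes reached a median of 1935 bp in Early-B cells and 1716 bp in progenitors. Downstream, they reached 1613 bp in Early-B cells and 1477 bp in progenitors. The 44 peaks without one had a median width of 2571.5 bp in Early-B cells and 2377 bp in progenitors. Their median upstream reach was 866 bp in Early-B cells and 777 bp in progenitors, and their downstream reach was 1600 bp in Early-B cells and 1613.5 bp in progenitors. The downstream side was the longer one at 7 of the 25 genes in each group, and at 37 of the 44 in Early-B cells and 40 of the 44 in progenitors.

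The same split was seen over all coding genes with a start site in a peak. There the downstream side was the longer one at 46.5% of genes with an opposite start in Early-B cells and 45.8% in progenitors, and at 81.8% of genes without one in Early-B cells and 86% in progenitors. Over all 69 genes together it was the longer side at 44 (63.8%) in Early-B cells, against 76.1% of coding genes, and at 47 (68.1%) in progenitors, against 79.3%. The start-site peak was wider in Early-B cells at 45 of 69 genes (65.2%), against 64.6%. It reached further upstream in Early-B cells at 44 genes (63.8%), against 68.9%, and further downstream at 42 (60.9%), against 56.6%. The median excess of the Early-B peak was 50 bp upstream and 60 bp downstream.

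**Figure D4:**
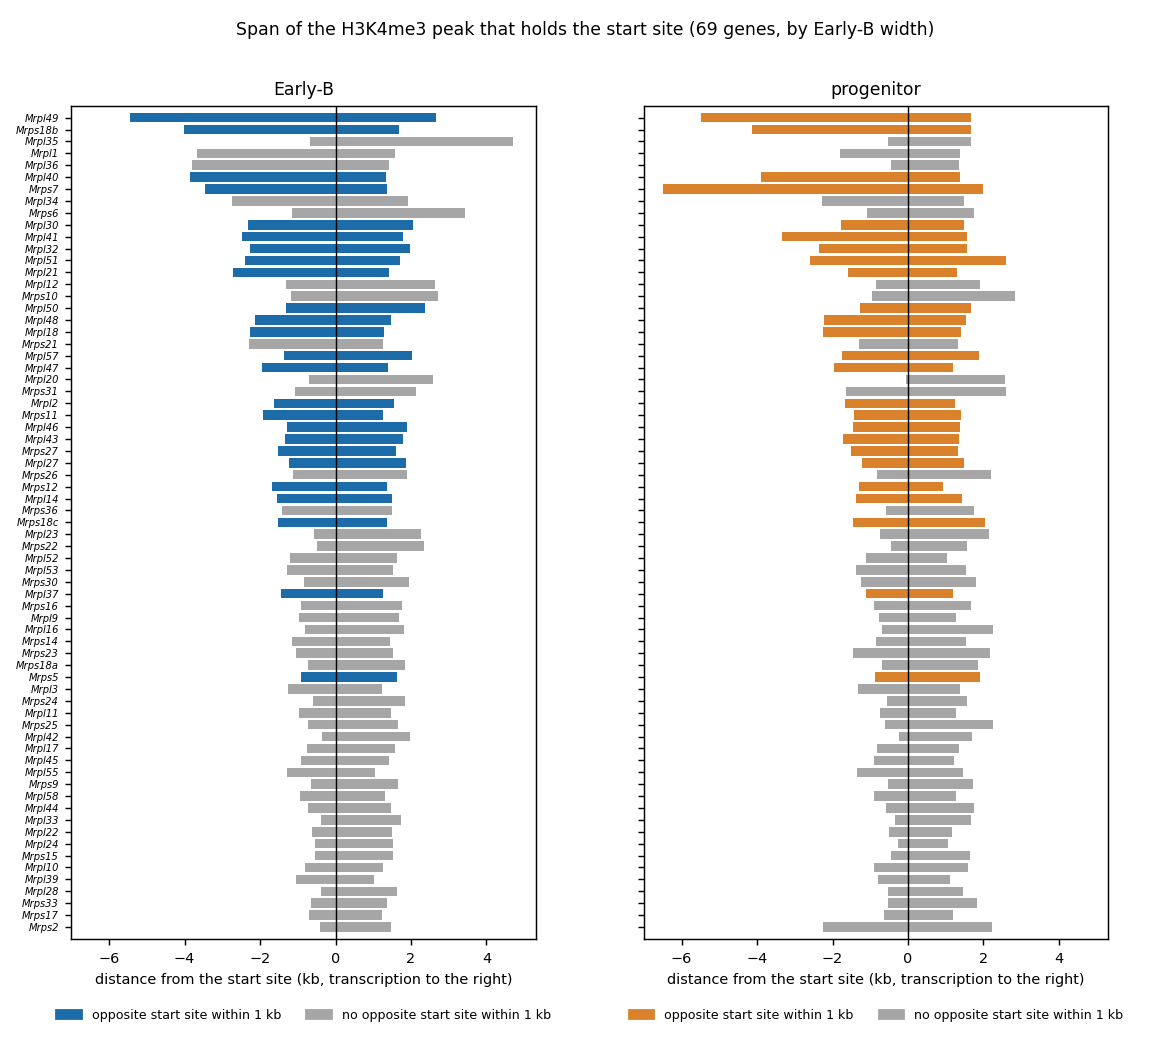
Extent of the H3K4me3 peak around the start site (0, distance in kb, transcription to the right) at 69 genes, in Early-B cells (left) and progenitors (right), ordered by Early-B width. Coloured bars are the 25 genes with the start site of another coding gene on the opposite strand within 1 kb, and grey bars the other 44. Coloured bars crowd the wide end and extend to the left, and grey bars mostly extend to the right.

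The promoters of these genes held known motifs of mitochondrial gene regulation more often than coding promoters at large. Of the 69 promoters, 24 (34.8%) held the ETS motif, against 11.9% of all coding promoters and 19.1% of those of genes with an end peak in both lists. The NRF1 motif was in 13 (18.8%), against 6.66% and 10.9%, and the YY1 motif in 12 (17.4%), against 3.21% and 4.73%. At least 1 of the 3 was in 41 promoters (59.4%), against 19.6% and 30.9%. These are counts of letters on either strand, each promoter counted once for a motif and overlapping matches allowed, and they were not tested. By subunit, the NRF1 motif was in 23.3% of 43 Mrpl and 11.5% of 26 Mrps promoters, the ETS motif in 32.6% and 38.5%, and the YY1 motif in 6 promoters of each. The 25 promoters with an opposite start held the YY1 motif in 28.0% of cases and the other 44 in 11.4%. The ETS motif was in 40.0% and 31.8%, and the NRF1 motif in 4 of the 25 and 9 of the 44. No share over all coding promoters is given for this split by opposite start. At Mrps11, Mrps12 and Mrpl32, which are among the 25, the YY1 match read on the strand of the partner gene.

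Of the 12 promoters with the YY1 motif, 8 (66.7%) had a match after the start site, against 51.5% of all coding promoters with it and 56.2% of those of genes with an end peak in both lists. These 8 matches read along the gene and began between 12 and 37 bases after the start site, as in the printed Mrps27 and Mrps18a promoters. Where a match read along the gene, it lay after the start site in 241 of 371 coding promoters and in 218 of 314 (69.4%) of those with an end peak in both lists. Strand and place were looked at after the matches were seen, and neither was tested. The other 4 matches, in Mrps11, Mrps12, Mrpl32 and Mrpl36, read on the opposite strand, at -107, -199, -242 and -30. At Mrps11, Mrps12 and Mrpl32 that is the strand of the partner gene, and the match began 59 bases after the start of Mrpl46, 46 bases after that of Sars2 and 31 bases after that of Psma2. Mrpl36 had no such partner. The same letters are also the core of a known element that sets the translation start of mRNAs with short leaders, so a match does not tell the roles apart. ETS matches were found after the start site in 8 of 24 promoters (33.3%), against 25.8% and 27.2%, and NRF1 matches in 3 of 13 (23.1%), against 18.5% and 19.4%, so both were near the background. Mrpl45 held NRF1 matches that began at -120, -38 and 16, and Mrps26 at -2 and 5, where 1 is the start site.

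Other promoter motifs were near the background or below it. The SP and KLF motif GGGCGG was in 34 (49.3%), against 46.3% of all coding promoters and 65.3% of those of genes with an end peak in both lists. The NF-Y motif CCAAT was in 27 (39.1%), against 39.2% and 39.5%, and the E-box CACGTG in 5 (7.25%), against 7.91% and 10.3%. The letters TGACGTCA, bound by CREB, were in 2 (2.9%), against 2.33% and 3.39%. The TATA box letters TATAAA were in 4 (5.8%), against 13.3% and 6.79%. Within these genes GGGCGG was in 39.5% of Mrpl and 65.4% of Mrps promoters, and in 72.0% of the promoters with an opposite start and 36.4% of the others. CCAAT was in 28.0% of those with an opposite start and 45.5% of the others. For these splits by opposite start, too, no share over all coding promoters is given. The EBF1 motif, TCCC and GGGA parted by any 2 bases, was in 1 promoter, that of Mrpl27, at -231 (1.45%), against 0.92% and 0.939%. Median GC content was 58.3%, against 56.3% and 61.0%, and the ratio of observed to expected CpG was 0.818, against 0.577 and 0.775.

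**Figure D5:**
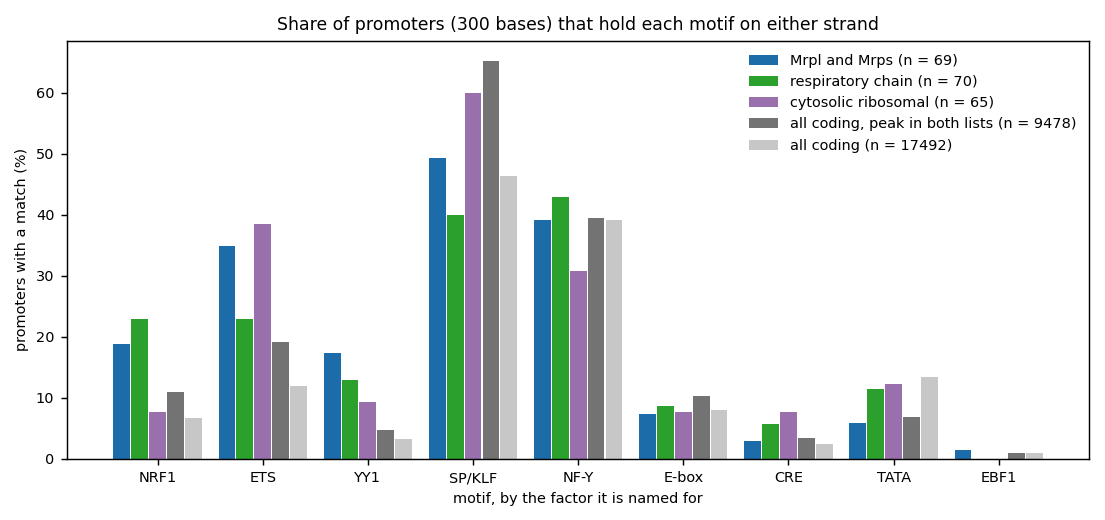
Share of promoters of 300 bases (vertical, percent) that hold each motif on either strand, for mitochondrial ribosomal protein genes (69, blue), respiratory chain genes (70, green), cytosolic ribosomal protein genes (65, purple), coding genes with an end peak in both lists (9478, dark grey) and all coding genes (17492, light grey). The blue bars stand above both grey bars for NRF1, ETS and YY1 and at 49.3%, between them, for SP/KLF.

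Genes of the cytosolic ribosome and of the respiratory chain were set beside those of the mitochondrial ribosome. Of 85 genes for proteins of the cytosolic ribosome, 83 had an end peak in both lists and Rpl10l and Rpl39l in neither. Their peaks had a similar pileup, with a median of 146.4 in Early-B cells and 183.8 in progenitors, and a greater median width, of 4589 bp in Early-B cells and 4077 bp in progenitors. Peaks in Early-B cells were set against the median width of coding genes with an end peak. That median was exceeded at 32 of 78 mitochondrial ribosomal protein genes and at 76 of 83 cytosolic ones. The Early-B peak was the wider one at 64 of 83 cytosolic ribosomal protein genes (77.1%), against 64.4% of coding genes with both peaks. Of 88 genes for the respiratory chain and the ATP synthase, 80 had an end peak in both lists, with a median width of 3249 bp in Early-B cells and 2976 bp in progenitors. The NRF1 motif, held by 18.8% of promoters of mitochondrial ribosomal protein genes, was held by 22.9% of 70 respiratory promoters and 7.69% of 65 cytosolic ribosomal ones. The ETS motif, held by 34.8%, was held by 22.9% of respiratory and 38.5% of cytosolic ribosomal promoters. The YY1 motif, held by 17.4%, was held by 12.9% of respiratory and 9.23% of cytosolic ribosomal promoters. At least 1 of the 3 was in 59.4% of promoters of mitochondrial ribosomal protein genes, 51.4% of respiratory and 52.3% of cytosolic ribosomal ones, against 19.6% of all coding promoters.

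The other genes of mitochondrial translation had peaks as widely. Of 62 such genes, 61 had an end peak in both lists, against 53.5% of all protein-coding genes. The Early-B peak was wider at 42 of the 61 (68.9%), against 64.4% of coding genes with both peaks. The 5 genes for ribosomal proteins with other names, Dap3, Ptcd3, Chchd1, Aurkaip1 and Gadd45gip1, all had one. So did the 11 initiation, elongation, release and recycling factors, with peaks at Tufm, the elongation factor, of 3094 bp in Early-B cells and 2214 bp in progenitors. So did the 23 genes for assembly and rRNA modification and the 6 for mitochondrial transcription. Of 17 mitochondrial aminoacyl-tRNA synthetases 16 had one, and the Early-B peak was wider at 14 of the 16 (87.5%), against the same 64.4%. The exception, Aars2, had its peak inside the gene at the start site, 1438 bp wide in Early-B cells and 1209 bp wide in progenitors, beyond the windows at its annotated ends.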

How the data were processed

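The peaks were called by the authors from H3K4me3 samples, and per the submitters' processing notes the tools were MACS 1.4.3 and Bowtie 1.1.2 and the builds GRCh38 and mm10, without a role for each. Each group had 1 deposited list, matched to its group by name. Pooling of replicates, the use of input and the settings are not stated there. The deposited columns look like the broad-peak output of a later MACS version, and the version that wrote them is not stated. The deposited pileup is the authors' coverage signal per peak. Whether it is the highest value or a mean over the peak is not stated. The authors' fold enrichment is a deposited ratio of signal to background. The deposited −log10 p and −log10 q columns have damaged names and were read from their values and order. Coordinates are 1-based as deposited.

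Gene spans and promoters came from RefSeq (GRCm38.p6), and were handled in pandas 2.3.3 and numpy 2.4.6 under Python 3.11.15, with figures in matplotlib 3.10.9 and rank coefficients in scipy 1.17.1. A gene's end peak was the one with the highest −log10 p among peaks within 1 kb of either end. The genes to name were those with a peak in 1 list only, the 4 widest and narrowest, the 4 highest and lowest by pileup, the 4 extremes of the width ratio, and genes that share a peak with these or have the most neighbours. Other genes are named for their role, chosen after their values were seen. The genes and lists were chosen with earlier results of these data known. Assignment was run on simulated peaks placed near an annotated end of genes far from any neighbour, where 4000 of 4000 genes were placed in their class. Assignment where the start site lies away from the annotated end, as at Mrpl24, Mrps2, Mrps23 and Aars2, was not tested. Assignment beside the peak of a neighbour, as at Mrpl22, was not tested either. Alternatives tried were other windows, thresholds, list lengths, ways to choose the peak, and promoter lengths. Exons and introns were not used here.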

Additional observations from a re-analysis of the deposited data

How the results depend on the processing

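Of 83 alternative values, 68 stayed within a factor of 1.5 of the reported ones and 15 moved further. Within that factor, the count of genes with a shared peak still varied. It ran from 28 to 44 in Early-B cells, where 40 was reported, and from 28 to 45 in progenitors, where 39 was reported. The count of 28 is of the 69 genes with a known start site. The count of genes with peaks in both lists ran from 69 to 78, where 69 is every gene with a known start site, and the count with a wider Early-B peak ran from 45 to 51. This second range includes a count over peaks that hold the start site and one with each shared peak counted once, both added after the data were seen. Mrpl24 moved the count for Early-B cells only to 0 with a window of 500 bp, a window of 2.5 kb, a peak anywhere in the gene, a fold of at least 10, start sites alone, or a peak on the end base itself. The count for progenitors only became 2 at a −log10 p of at least 10, 1 at a fold of at least 10, and 2 with a peak on the end base. The count in neither list became 3 with a window of 500 bp, 2 at a fold of at least 10, and 3 with a peak on the end base. The middle 200 bases of the promoters leave out the first 50 and the last 50 bases. There the share was 20.3% for ETS, against 8.44% of all coding promoters and 13.5% of those with an end peak in both lists. It was 4.35% for YY1, against 1.17% and 1.64%, and 0.0% for EBF1, against 0.617% and 0.601%.

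No paired analysis was possible because each group has 1 peak list and no values per sample. Leaving out a replicate could not be done for the same reason. The main limits are the lack of replicates and of depth, and gene spans that extend past the start site. Others are peaks that one list joins and the other splits, and a longer Early-B list. With lists of equal length, at 31414 peaks, the counts by class, of wider Early-B peaks and of shared peaks stayed as reported for these genes. None of their Early-B end peaks was among the 33.2% of that list with a q above 0.05. Shortening a list drops peaks and leaves the width of those kept unchanged. An effect of depth on the width or joining of peaks was therefore not tested.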
